A study of Mus musculus with 59 samples.

Results

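The bone morphogenetic protein (BMP) signalling genes described here are 10 in number: the ligands *Bmp2*, *Bmp4*, *Bmp7* and *Bmp8b*, the type I receptor *Bmpr1a*, the signal transducers *Smad1* and *Smad5*, and the target genes *Id1*, *Id2* and *Id3*. They were chosen by symbol, with earlier results of these data known. The choice was made from 22134 named genes that had a count in at least 1 of 14 single mouse epiblasts, and all 10 were found. For each gene the transcript with the highest mean count was read, and a transcript that a library did not list was given a count of 0. The epiblasts came from matings of heterozygous parents on a mixed background. They were dissected at embryonic day E6.25, a stage the study describes as before gastrulation. In the *Ehmt2* cross, 4 control epiblasts labelled G9a+/+ were compared with 4 knockouts labelled G9a-/-, which lacked the H3K9 methyltransferase G9a, the product of *Ehmt2*. From the *Ezh2* cross, 3 control epiblasts labelled Ezh+/+ were compared with 3 knockouts labelled Ezh-/-, which lacked the H3K27 methyltransferase EZH2. The study describes the controls as +/+ or +/-, so heterozygous embryos may be among them. The question of both crosses was which genes each enzyme keeps silent in the epiblast. Both knockouts were constitutive, the *Ehmt2* allele derived from a published conditional allele and bred with a reporter line that carries EGFP under a *Pou5f1* enhancer, so the deletions were not limited to the epiblast. Each library was made from 1 dissected epiblast.

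BMP ligands are secreted dimers that bind a complex of type I and type II receptors, which phosphorylates SMAD1, SMAD5 and SMAD9. These enter the nucleus with SMAD4 and activate targets, of which the *Id* genes, encoding inhibitors of basic helix-loop-helix factors, are the best known. Around the start of gastrulation the extraembryonic ectoderm, the tissue next to the epiblast, is the main source of *Bmp4* and *Bmp8b*, the visceral endoderm produces *Bmp2*, and the signal induces primordial germ cells and mesoderm in the proximal epiblast.

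Loss of G9a was accompanied by more transcript of 1 ligand, *Bmp4*, and 1 target, *Id2*. Each was higher in 4 of 4 knockouts than in every control, as were 3.55% of genes. Both were called higher, beside 0.781% of genes, and each call held in 10 of 15 alternative fits. The mean log2 level of 10 extraembryonic ectoderm markers was also above every control in *Ehmt2* knockouts 1 to 3. The part of that tissue in the *Bmp4* and *Id2* values was not tested. On loss of EZH2 edgeR called no member, beside 0% of genes called higher and 0.00714% called lower. DESeq2 called *Bmp4* higher there, beside 0.485% of genes. *Bmp4*, *Bmp7* and *Bmp8b* were above every control in all 3 *Ezh2* knockouts, beside 7.71% of genes. *Bmpr1a* and *Id3* were below every control in them, beside 6.47% of genes. The fitted log2 fold changes of the receptor and the Smads were between -0.49 and 0.17 in both crosses, and none was called. To be called, a transcript needed a p-value under 0.05 after adjustment (edgeR, quasi-likelihood) and had to differ by more than 1.4 on the log2 scale.

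Each epiblast had a total of 30161171 to 78951344 counts over all its transcripts, or 12495094 to 28434545 over 1 transcript per gene. Levels are given as CPM, the count relative to the library total after TMM scaling, and 3 counts corresponded to between 0.038 and 0.0995 CPM. The targeted genes were lower in every knockout of their own cross, *Ehmt2* by 1.63 (standard error 0.21, edgeR adjusted p = 0.00452) and *Ezh2* by 2.52 (standard error 0.27, edgeR adjusted p = 0.016) on the log2 scale. Of 8 epiblast markers, among them *Pou5f1*, *Otx2* and *Fgf5*, none was at 0 in any library, and their summed level was between 2558 and 2919 CPM in the *Ehmt2* controls and between 1519 and 2227 CPM in the *Ehmt2* knockouts, where knockout 1 was lowest. In that cross 7 of the 8 had a fitted value below 0, 4 of them at an unadjusted p under 0.05, beside 6.85% of genes, and 0 were called. *Otx2* and *Dnmt3b* were below every control in every *Ehmt2* knockout, by 0.44 and 0.50 on the log2 scale (edgeR adjusted p = 0.209 and 0.0941). Sums in the *Ezh2* cross were between 2641 and 2827 CPM in controls and between 2140 and 2838 CPM in knockouts. Markers of nascent mesoderm, 8 in the list, summed to 23.6, 203, 63.6 and 55.5 CPM in *Ehmt2* controls 1 to 4. In knockouts 1 to 4 they summed to 123, 57.7, 69.1 and 34 CPM. Of 7 tested there, 6 had a fitted value below 0, and 0 were called. At an unadjusted p under 0.05, 2 were lower, beside 6.85% of genes. The *Ezh2* sums were 102, 171 and 75.6 CPM in controls and 141, 193 and 90.6 CPM in knockouts. The part of these epiblast and mesoderm marker levels in the *Bmp4*, *Id2* and other member values was not tested. The 2 libraries of *Ehmt2* replicate 4 had the highest totals of the 14. The study's gene list sets them against each other, although its methods describe each knockout as compared with every control. The *Ehmt2* model carried a term that separates replicate 4 from replicates 1 to 3. Leaving out either library of replicate 4 leaves the other alone in its set, where it no longer bears on the knockout effect. The epiblasts came from 4 *Ehmt2* and 3 *Ezh2* litters, and which of them shared a litter is not given.

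In the files' build, GRCm38, the counted transcripts were ENSMUST00000028836 of *Bmp2* (chr2:133552159-133562885), ENSMUST00000074077 of *Bmp4* (chr14:46383520-46390669), ENSMUST00000009143 of *Bmp7* (chr2:172868012-172940321) and ENSMUST00000002457 of *Bmp8b* (chr4:123105165-123126091). Those of the receptor and the Smads were ENSMUST00000049005 of *Bmpr1a* (chr14:34410734-34502687), ENSMUST00000066091 of *Smad1* (chr8:79338395-79399518) and ENSMUST00000069557 of *Smad5* (chr13:56703010-56742377). Those of the targets were ENSMUST00000109824 of *Id1* (chr2:152736251-152737410), ENSMUST00000020974 of *Id2* (chr12:25093801-25096092) and ENSMUST00000008016 of *Id3* (chr4:136143497-136145392). All 10 are protein coding, and no other isoform of a member had a mean count within 1% of the one read. Reads of *Bmp8b* could be shared with its closely related neighbour *Bmp8a* and with *Oxct2b*, which lies inside its span and reached 51 counts. The end of *Bmp4* overlaps the antisense gene *Gm15217*, which reached 20 counts, and the counting is not stated to use strand.

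The promoters of the 2 called genes are shown because the data turn on them. Each run holds the 250 bases before the start of the gene in RefSeq (GRCm38.p6), which is also the start of the counted transcript, printed along the gene's strand. Capitals mark GGCGCC, a GC-rich core that BMP Smads bind.
*Bmp4*, chr14:46390670-46390919, minus strand: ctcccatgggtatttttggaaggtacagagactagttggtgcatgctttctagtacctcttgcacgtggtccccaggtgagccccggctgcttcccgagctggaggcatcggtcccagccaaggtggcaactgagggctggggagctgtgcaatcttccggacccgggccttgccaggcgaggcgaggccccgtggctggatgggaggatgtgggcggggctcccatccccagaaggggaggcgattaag
*Id2*, chr12:25096093-25096342, minus strand: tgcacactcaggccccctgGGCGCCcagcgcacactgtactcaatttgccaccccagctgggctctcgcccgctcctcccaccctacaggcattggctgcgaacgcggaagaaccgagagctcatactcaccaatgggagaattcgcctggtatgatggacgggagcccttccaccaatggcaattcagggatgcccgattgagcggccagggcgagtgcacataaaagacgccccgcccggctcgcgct

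GGCGCC, which reads the same on both strands, occurred once in the *Id2* window and not in that of *Bmp4*. Of the other members, *Bmpr1a*, which was not called, also had 1 match. The motif was found in 9.59% of 32851 RefSeq promoter windows of the same length. CAGAC, the Smad box, searched on both strands, was in neither the *Bmp4* nor the *Id2* window, and 42.2% of all windows held it. The *Bmp8b* window had 1 CAGAC match and that of *Id3* had 2. The *Bmp4* window had a GC content of 63.2% and 11 CpG dinucleotides and that of *Id2* 62.8% and 18, beside medians of 52.4% and 6 over all windows. Among the other members with an entry, the windows held 17 CpG in *Bmp8b*, 22 in *Smad5*, 25 in *Smad1*, 36 in *Bmpr1a* and 18 in *Id3*, so all 7 were above the median. The RefSeq start lay 141 bases from that of the counted transcript in *Bmpr1a*, 90 in *Smad1* and 325 in *Id3*. The *Id3* window lies inside the span of its counted transcript. A match is a run of letters, not a binding site. *Bmp2*, *Bmp7* and *Id1* had no entry.

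In control epiblasts *Id3*, the receptor and the Smads were more abundant per length than any ligand. Divided by transcript length, the level in the *Ehmt2* controls was 25.6 ± 8.8 CPM per kb for *Id3* (SD, n = 4), 13.6 ± 1.98 for *Bmpr1a*, 6.96 ± 1.85 for *Smad1* and 5.49 ± 0.718 for *Smad5*. *Id2* at 2.28 ± 0.593 and *Id1* at 2.09 ± 1.43 CPM per kb came next. The ligands were lowest, with *Bmp4* at 0.811 ± 0.275, *Bmp2* at 0.54 ± 0.367, *Bmp8b* at 0.225 ± 0.0974 and *Bmp7* at 0.0967 ± 0.132 CPM per kb. *Id3* was above *Bmpr1a*, *Bmpr1a* above *Smad1*, and *Smad5* above *Id2* in every control, whereas the ranges of *Smad1* and *Smad5*, of *Id2* and *Id1*, of *Id1* and *Bmp4*, and of each ligand and the next overlapped.

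The order in the *Ezh2* controls was alike, from *Id3* at 24.7 ± 1.68 CPM per kb (SD, n = 3) and *Bmpr1a* at 17.2 ± 1.07 to *Bmp8b* at 0.186 ± 0.0722 and *Bmp7* at 0.0317 ± 0.0361. Only the neighbours *Id1* and *Id2*, *Id2* and *Bmp2*, and *Bmp2* and *Bmp4* overlapped there. *Bmp2* was at 0.995 ± 1.02 CPM per kb, so its SD was as large as its mean.

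**Figure D1:**
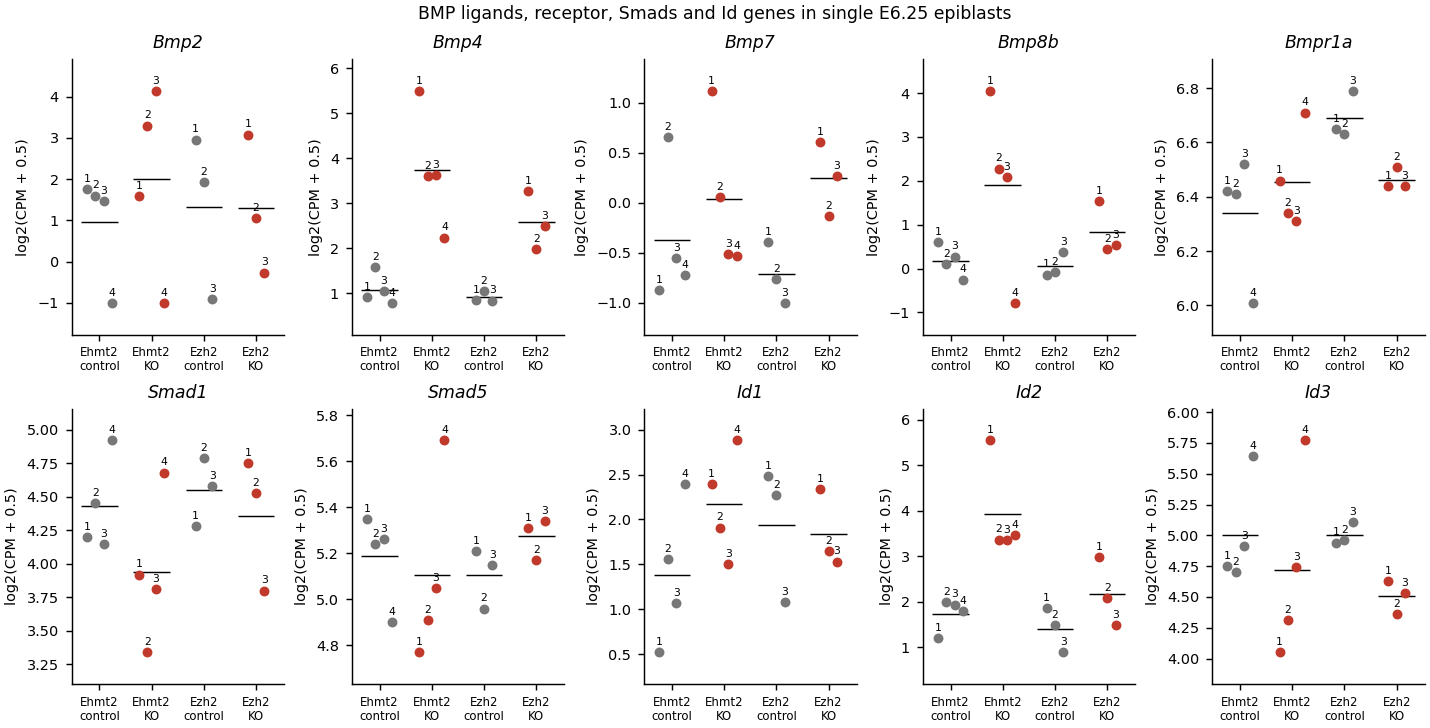
Level of the 10 genes in each epiblast as log2(CPM + 0.5), with 1 panel a gene and its own vertical scale. Grey points are controls and red points knockouts (KO), the digit is the replicate number and the line the group mean. *Bmp4* and *Id2* separate the *Ehmt2* knockouts from their controls, with knockout 1 highest, and *Bmp4*, *Bmp7* and *Bmp8b* lie higher in the *Ezh2* knockouts.

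*Bmp4*, the ligand that patterns the proximal epiblast, was the member that rose most on loss of G9a. It was at 1.4, 2.5, 1.57 and 1.23 CPM in *Ehmt2* controls 1 to 4, 57 to 118 counts a library. It was at 44.8, 11.7, 11.8 and 4.23 CPM in knockouts 1 to 4, 262 to 1602 counts. The groups did not overlap, and knockout 1 stood far above the other knockouts. Control and knockout means were 1.67 ± 0.567 and 18.1 ± 18.1 CPM (SD, n = 4 each), so the spread among the knockouts was as large as their mean. Its log2 fold change was 3.20 (standard error 0.51, edgeR adjusted p = 0.0166), and the two-sided exact permutation test on CPM gave p = 0.0286, the smallest that 4 against 4 allow. Without knockout 1 it was 2.43 (edgeR adjusted p = 0.00702), a fold over 1.5 times smaller that still passed. Leaving out control 1, 2 or 3 ended the call, with log2 fold changes of 2.99, 3.30 and 3.04 and edgeR adjusted p = 0.0863, 0.0715 and 0.0965. The call was also lost without the term for replicate 4 (edgeR adjusted p = 0.0962).

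On loss of EZH2, *Bmp4* was also higher, by a smaller value that edgeR did not call. *Ezh2* controls 1 to 3 had 1.3, 1.57 and 1.29 CPM and knockouts 1 to 3 had 9.21, 3.46 and 5.14 CPM. Every knockout was above every control, and the controls lay within 0.3 CPM of each other. The log2 fold change of 2.09 (standard error 0.40) did not pass edgeR's test (adjusted p = 0.276), and the exact permutation test cannot go below p = 0.10 with 3 against 3, which it reached. DESeq2 called it, with a log2 fold change of 2.10 and an adjusted p = 0.000453. Leaving out each epiblast in turn kept the value between 1.63 and 2.37, with edgeR adjusted p-values between 0.303 and 0.71. The *Ehmt2* effect exceeded the *Ezh2* effect by 1.11 (standard error 0.71, edgeR adjusted p = 0.72), which did not pass the test.

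*Bmp8b*, which acts with *Bmp4* in germ cell induction, was higher in 3 of 4 *Ehmt2* knockouts. Its controls 1 to 4 had 1.03, 0.571, 0.708 and 0.343 CPM, and its knockouts had 16, 4.36, 3.75 and 0.0807 CPM. Knockout 4, with 5 counts, lay below every control, so the groups overlapped. Its log2 fold change was 2.53 (standard error 0.86, edgeR adjusted p = 0.259). Without replicate 4 of both genotypes the value was 3.39 (edgeR adjusted p = 0.0161) and *Bmp8b* was called. Leaving out only control 4 or only knockout 4 rests on the same comparison, since the other is then alone in its set. Within the *Ezh2* cross it was at 0.406, 0.443 and 0.791 CPM in controls and at 2.38, 0.859 and 0.952 CPM in knockouts. The groups did not overlap, and the log2 fold change of 1.35 (standard error 0.61) had an edgeR adjusted p = 0.716.

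*Bmp2*, the ligand of the visceral endoderm, varied widely between embryos of 1 genotype. *Ehmt2* controls 1 to 4 had 2.89, 2.54, 2.26 and 0 CPM, and knockouts 1 to 4 had 2.52, 9.38, 17.2 and 0 CPM. Knockouts 2 and 3 were above every control, knockout 1 was within them, and both epiblasts of replicate 4 had no count. That allows a level of up to 0.0541 CPM in control 4 and 0.0484 CPM in knockout 4. The log2 fold change was 1.91 (standard error 0.54, edgeR adjusted p = 0.183). DESeq2 called it (1.86, adjusted p = 0.0166), and so did edgeR without knockout 1 (2.36, adjusted p = 0.0207).

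In the *Ezh2* cross, *Bmp2* spanned a wide range in both genotypes, with 7.28, 3.31 and 0.0293 CPM in controls and 7.95, 1.58 and 0.327 CPM in knockouts. Its log2 fold change of -0.11 carried a standard error of 1.18 (edgeR adjusted p = 0.995). It became 0.97 without control 1, 0.22 without knockout 2 and 0.42 without knockout 3, so no direction can be given. The 10 visceral endoderm markers summed to 16.4, 446 and 14.5 CPM in *Ezh2* controls 1 to 3 and to 929, 24.7 and 21.1 CPM in knockouts 1 to 3. *Ezh2* knockout 1, with the highest *Bmp2* of this cross, had the highest sum, whereas control 1, nearly as high in *Bmp2*, had a low sum. In the *Ehmt2* cross these sums were 33.8, 31.2, 22.5 and 9.31 CPM in controls 1 to 4. Knockouts 1 to 4 had 18.6, 38.9, 28.8 and 10.2 CPM. They were lowest in the 2 epiblasts of replicate 4, which had no *Bmp2* count, and highest in knockout 2. Knockout 3, with the highest *Bmp2* of that cross, had a lower sum than controls 1 and 2.

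Markers of decidua, the maternal tissue around the embryo, and blood also differed between the libraries, and none of the 5 tested in each cross was called. The list of 8 markers summed to 32.3, 11.8, 26.5 and 3.23 CPM in *Ehmt2* controls 1 to 4 and to 11.3, 38.8, 55.4 and 11.7 CPM in knockouts 1 to 4, with between 0 and 4 of them at 0 in a library. Of these, the decidual gene *Prl8a2* was at 10.1, 5.63, 7.61 and 0 CPM in controls and at 1.82, 15, 16.9 and 0 CPM in knockouts. Like *Bmp2*, it was highest in knockouts 2 and 3 and had no count in either epiblast of replicate 4. The sums of the *Ezh2* cross were 67.4, 4.49 and 12.9 CPM in controls and 38, 38.5 and 11.2 CPM in knockouts, with *Prl8a2* at 7.77, 0 and 0.498 CPM and at 10.2, 3.63 and 0.109 CPM. *Prl8a2* was thus high in control 1 and knockout 1, the *Ezh2* epiblasts with most *Bmp2*, but had no count in control 2, where *Bmp2* was at 3.31 CPM. *Prl8a2* was singled out after its values were seen, and the part of visceral endoderm or decidua in the *Bmp2* values was not tested.

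*Bmp7* was the least abundant member, with at most 60 counts in the *Ehmt2* epiblasts. It was at 0.0489, 1.08, 0.184 and 0.108 CPM in *Ehmt2* controls 1 to 4 and at 1.68, 0.542, 0.204 and 0.194 CPM in knockouts. The groups overlapped, and *Bmp7* was removed by the filter on low counts there, so 9 of the 10 members were tested in that cross. Among the *Ezh2* epiblasts it was tested, with 0.261, 0.0886 and 0 CPM in controls and 1.03, 0.416 and 0.708 CPM in knockouts, 15 to 32 counts. All 3 knockouts were above the controls, and the log2 fold change of 2.58 had a standard error of 1.01 (edgeR adjusted p = 0.649).

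The receptor and the Smads, which carry the signal inward, were expressed in every epiblast, from 64 to 110 CPM for *Bmpr1a*, 9.63 to 29.8 CPM for *Smad1* and 26.8 to 51.1 CPM for *Smad5*. *Bmpr1a* was at 85, 84.4, 91 and 64 CPM in *Ehmt2* controls 1 to 4 and at 87.8, 80.5, 78.8 and 104 CPM in knockouts 1 to 4. Its groups overlapped, with replicate 4 at both ends of the range. The log2 fold change was 0.12 (standard error 0.14, edgeR adjusted p = 0.798) and turned to -0.08 when control 4, knockout 4 or both were left out. Within the *Ezh2* cross *Bmpr1a* was at 99.8, 98.3 and 110 CPM in controls and at 86.2, 90.7 and 86.5 CPM in knockouts. Every knockout was below every control by a small margin, a log2 fold change of -0.23 (standard error 0.11, edgeR adjusted p = 0.729).

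*Smad1* was lower in the *Ehmt2* knockouts 1 to 3 than in any control, without passing the test. Its controls 1 to 4 had 17.9, 21.3, 17.3 and 29.8 CPM and its knockouts 14.7, 9.63, 13.5 and 25.2 CPM. Knockout 4 was above 3 of the controls but below control 4, the control of its set. Its log2 fold change was -0.49 (standard error 0.17, edgeR adjusted p = 0.27), and leaving out each epiblast in turn kept it between -0.58 and -0.37. In the *Ezh2* cross, controls had 18.9, 27.1 and 23.4 CPM and knockouts 26.4, 22.6 and 13.5 CPM. That difference, -0.15 (standard error 0.24, edgeR adjusted p = 0.944) on the log2 scale, became 0.08 without knockout 3.

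*Smad5* was not called in either cross. It was at 40.3, 37.2, 37.8 and 29.4 CPM in *Ehmt2* controls and at 26.8, 29.5, 32.6 and 51.1 CPM in knockouts. Knockouts 1 to 3 lay below controls 1 to 3 and knockout 4 above every control, with a log2 fold change of -0.09 (standard error 0.19, edgeR adjusted p = 0.909), which was 0.02 without knockout 1. Among the *Ezh2* epiblasts it was at 36.5, 30.7 and 34.9 CPM in controls and at 39.2, 35.4 and 39.9 CPM in knockouts. The groups overlapped, and the log2 fold change was 0.17 (standard error 0.13, edgeR adjusted p = 0.859).

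Of the 3 *Id* genes only *Id2* was called, in the *Ehmt2* cross, and the 3 were not tested against each other. *Id2*, which also marks extraembryonic ectoderm, rose in the *Ehmt2* knockouts from 1.81, 3.47, 3.33 and 2.96 CPM in controls 1 to 4 to 46.3, 9.8, 9.7 and 10.6 CPM in knockouts 1 to 4. No knockout overlapped the controls, knockouts 2 to 4 lay within 1 CPM of each other, and knockout 1 was more than 4 times as high as each of them. Control and knockout means were 2.89 ± 0.753 and 19.1 ± 18.2 CPM (SD, n = 4 each). The log2 fold change was 2.66 (standard error 0.50, edgeR adjusted p = 0.04), with an exact permutation p = 0.0286 on CPM, the smallest possible. Without knockout 1 it was 1.78 (edgeR adjusted p = 0.0188), over 1.5 times smaller as a fold and still past the threshold. The call was lost without control 1, 2 or 3, with values of 2.43, 2.71 and 2.68 and edgeR adjusted p = 0.136, 0.136 and 0.14. It was lost as well without the term for replicate 4 (edgeR adjusted p = 0.132).

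Within the *Ezh2* cross, *Id2* was at 3.13, 2.3 and 1.35 CPM in controls and at 7.37, 3.71 and 2.31 CPM in knockouts. Knockouts 1 and 2 were above every control and knockout 3 among them. Its log2 fold change was 0.98 (standard error 0.47, edgeR adjusted p = 0.733). The effect in the *Ehmt2* cross exceeded it by 1.69 (standard error 0.76), the member with the lowest p for a difference between crosses, and this did not pass either (edgeR adjusted p = 0.578).

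*Id1* was at 0.93, 2.45, 1.6 and 4.73 CPM in *Ehmt2* controls 1 to 4 and at 4.76, 3.25, 2.32 and 6.84 CPM in knockouts 1 to 4. The groups overlapped, although each knockout was above the mean of the controls of its own set. The log2 fold change was 0.91 (standard error 0.36, edgeR adjusted p = 0.34). In the *Ezh2* cross it was at 5.07, 4.31 and 1.61 CPM in controls and at 4.57, 2.63 and 2.39 CPM in knockouts, a log2 fold change of -0.20 (standard error 0.45, edgeR adjusted p = 0.959) that became 0.11 without control 1.

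*Id3*, the most abundant member per length, was at 26.4, 25.5, 29.5 and 49.3 CPM in *Ehmt2* controls 1 to 4 and at 16, 19.4, 26.2 and 54.2 CPM in knockouts 1 to 4. Knockouts 1 and 2 were below every control and knockout 4 above all of them, and the log2 fold change was -0.27 (standard error 0.17, edgeR adjusted p = 0.591). Among the *Ezh2* epiblasts, controls had 30.1, 30.5 and 34.1 CPM and knockouts 24.3, 20 and 22.7 CPM. The *Ezh2* groups did not overlap, and the log2 fold change was -0.50 (standard error 0.14, edgeR adjusted p = 0.531), between -0.57 and -0.43 when each epiblast was left out in turn. In both crosses the fitted value of *Id3* thus had the sign opposite to that of *Id2*.

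**Figure D2:**
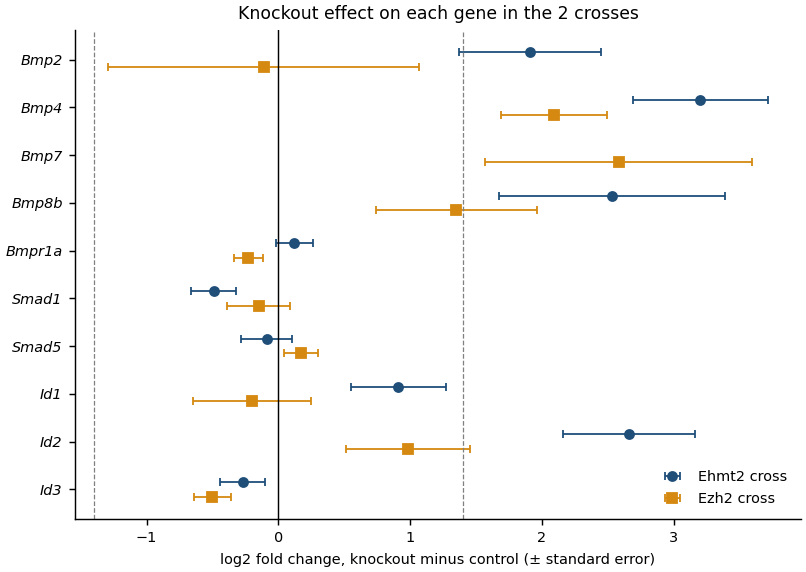
Fitted log2 fold change of each gene, knockout minus control, in the *Ehmt2* cross (circles) and the *Ezh2* cross (squares), with bars of 1 standard error and dashed lines at 1.4 and -1.4. *Bmp4* and *Id2* have the highest values of the *Ehmt2* cross, the receptor and the Smads lie near 0, and *Bmp7* has no value in the *Ehmt2* cross, where it was not tested.

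Over the members as a group, 2 of the 9 tested in the *Ehmt2* cross were called higher by edgeR, beside 0.781% of 13701 genes tested, and 0 were called lower, beside 0.0584%. At an unadjusted p-value under 0.05, 5 members were higher (*Bmp2*, *Bmp4*, *Bmp8b*, *Id1* and *Id2*), beside 8.56% of genes, and 1 was lower (*Smad1*), beside 6.85%. DESeq2 called 3 higher, *Bmp2*, *Bmp4* and *Id2*, beside 1.64% of genes, and 0 lower, beside 0.445%. In 2 members, *Bmp4* and *Id2*, every knockout was above every control, as in 3.55% of genes, and in none was every knockout below, as in 2.61%. The median log2 fold change of the 9 was 0.91, beside 0.01 over all genes.

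Within the *Ezh2* cross edgeR called 0 of the 10 members higher, beside 0% of 14010 genes, and 0 lower, beside 0.00714%. At an unadjusted p-value under 0.05, *Bmp4* and *Bmp7* were higher, beside 5.50% of genes, and *Id3* was lower, beside 3.39%. DESeq2 called *Bmp4* alone, beside 0.485% of genes called higher, and 0 lower, beside 0.0214%. Every knockout was above every control in 3 members, beside 7.71% of genes, and below in 2, *Bmpr1a* and *Id3*, beside 6.47%. The median of the 10 was 0.03, the same as over all genes. For none of the 10 did edgeR find a difference between the crosses (0 with an adjusted p under 0.05, beside 0.118% of 15195 genes), and *Id2* alone had an unadjusted p under 0.05.

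Taken embryo by embryo, the log2 difference of a knockout from the mean of the controls of its set, a value with no test since 1 embryo has no replicate, was above 0 for *Bmp4* and for *Id2* in 7 of 7 knockouts. For *Bmp4* it was 4.32, 2.42, 2.44 and 1.45 in *Ehmt2* knockouts 1 to 4 and 2.37, 1.07 and 1.58 in *Ezh2* knockouts 1 to 3. For *Id2* it was 3.84, 1.65, 1.64 and 1.68, and then 1.57, 0.66 and 0.08. Each *Ehmt2* knockout thus passed 1.4 for both genes at the pseudocount of 0.5 used here, but at a pseudocount of 1 *Bmp4* in knockout 4 was at 1.23. Of all genes, 3.25%, 2.24%, 2.03% and 4.51% were above 1.4 in *Ehmt2* knockouts 1 to 4. Knockout 4 was set against control 4 alone, and 4.8% of genes were below -1.4 in it. *Ezh2* knockout 1 had the largest differences of its cross for *Bmp4*, *Bmp8b*, *Bmp7*, *Bmp2*, *Id1* and *Id2*, and 8 of 10 members were above 0 in it, beside 53.4% of genes. In the other knockouts between 5 and 7 of the 10 were above 0, beside 49.9% to 51.8% of genes.

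**Figure D3:**
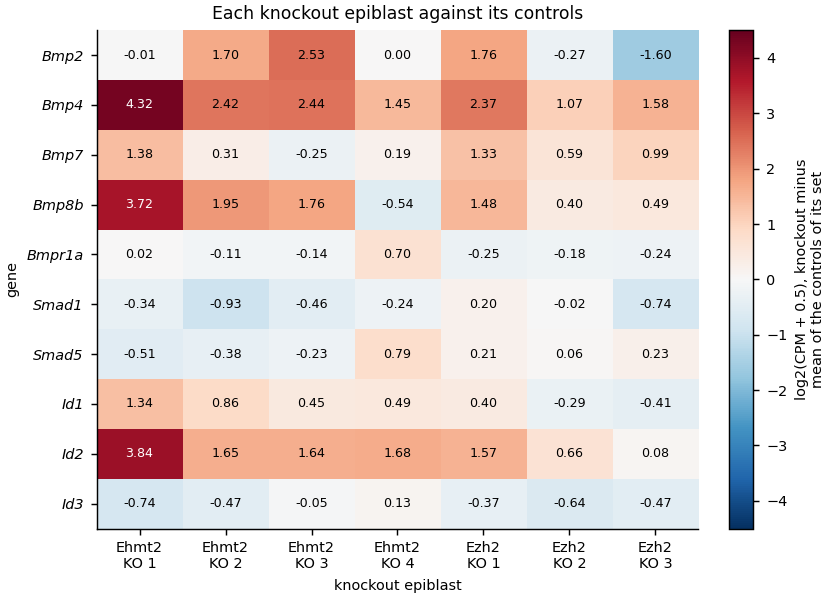
Heat map of the log2(CPM + 0.5) difference of each knockout epiblast from the mean of the controls of its set, with 1 row a gene, 1 column a knockout (KO) and the value printed in each cell. Red is higher and blue lower than the controls. The *Bmp4* and *Id2* rows are above 0 in all 7 columns, and *Ehmt2* knockout 1 reaches 4.32 for *Bmp4*, 3.84 for *Id2* and 3.72 for *Bmp8b*.

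Markers of the extraembryonic ectoderm, the neighbouring tissue, moved with these genes in several epiblasts. The mean log2(CPM + 0.5) of 10 such markers was 0.66, 1.15, 1.04 and 0.56 in *Ehmt2* controls 1 to 4 and 4.41, 2.89, 3.10 and 0.24 in knockouts 1 to 4. Their summed level was between 29.7 and 135 CPM in controls and between 35.2 and 346 CPM in knockouts, and *Eomes*, which the epiblast also transcribes, made up most of it in each control. *Elf5*, *Esrrb* and *Tfap2c* were the 3 of 10 markers called higher, beside 0.781% of genes, 8 were higher at an unadjusted p under 0.05, beside 8.56%, and 0 were called lower. In knockouts 1 to 3, *Bmp4*, *Bmp8b* and *Id2* were high together with these markers, and knockout 1 had the highest level of all 4. In bulk RNA of an epiblast, more cells of a neighbouring tissue and more RNA per cell cannot be told apart.

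*Ehmt2* knockout 4 was the exception. Of the 10 markers, 5 had no count in it, namely *Cdx2*, *Elf5*, *Hand1*, *Tfap2c* and *Wnt7b*, and 3 had none in its control. *Bmp4* was nevertheless at 4.23 CPM there and *Id2* at 10.6 CPM, each above every control, whereas *Bmp8b* was at 0.0807 CPM, below every control. *Esrrb*, at 1.08 CPM, and *Ets2*, at 17.9 CPM, were the markers above every control in this epiblast.

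In the *Ezh2* cross the marker mean was 0.87, 0.44 and 0.56 in controls 1 to 3 and 2.12, 1.56 and 0.65 in knockouts 1 to 3, with sums between 73.3 and 107 CPM and between 78.3 and 158 CPM. *Ezh2* knockout 3, whose mean was within the controls, had 1 marker at 0 and 5.14 CPM of *Bmp4*, above every control, beside 2.31 CPM of *Id2*, which was within them. The markers above every control in that epiblast were *Esrrb*, at 0.49 CPM, and *Hand1*, at 1.09 CPM. None of the 7 markers tested in this cross was called, and 4 had an unadjusted p under 0.05, all higher, beside 5.50% of genes. The part of this tissue in the *Bmp4*, *Bmp8b* and *Id2* values was not tested in any epiblast.

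**Figure D4:**
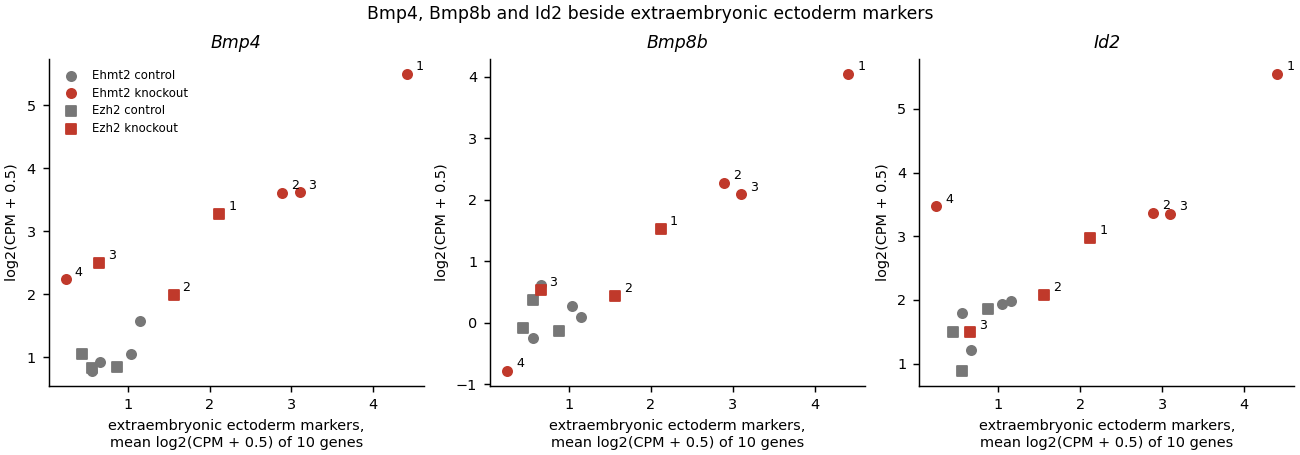
Level of *Bmp4*, *Bmp8b* and *Id2* in each epiblast against the mean level of 10 extraembryonic ectoderm markers, both as log2(CPM + 0.5). Circles are the *Ehmt2* and squares the *Ezh2* cross, red points with a replicate number are knockouts and grey points controls. *Ehmt2* knockout 4 has the lowest marker mean, 0.24, and lies above the controls for *Bmp4* and *Id2* and below them for *Bmp8b*.

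Across the rest of the pathway, 1 gene was called. A list of 47 further BMP genes held 44 with a count, of which 30 were tested in each cross. In the *Ehmt2* cross 21 of the 30 had a log2 fold change above 0, beside 51.1% of genes, and 9 below, 1 was called higher, beside 0.781% of genes, and 0 were called lower by edgeR, while DESeq2 called the type I receptor *Bmpr1b* lower (-1.78, adjusted p = 0.0144). At an unadjusted p under 0.05, 8 were higher, beside 8.56% of genes, and 2 lower, beside 6.85%, and the median was 0.40, beside 0.01 over all genes. Among the *Ezh2* epiblasts 23 were above 0, beside 54.0% of genes, and 7 below, edgeR called 0 and DESeq2 called *Bmp6* higher (3.38, adjusted p = 0.0254). There 4 were higher at an unadjusted p under 0.05, beside 5.50% of genes, and 0 lower, beside 3.39%, and the median was 0.41, beside 0.03.

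The gene called in the *Ehmt2* cross was *Tfap2c*, a factor of germ cell specification that also belongs to the extraembryonic ectoderm markers above. It was at 0.636, 1.04, 1.05 and 0.018 CPM in controls 1 to 4 and at 25.5, 7.67, 7.91 and 0 CPM in knockouts. Knockouts 1 to 3 were above every control and knockout 4 had no count. Its log2 fold change was 3.80 (standard error 0.57, edgeR adjusted p = 0.0119), and the call was lost without control 1, 2 or 3 (edgeR adjusted p = 0.0772, 0.0695 and 0.0784). Without knockout 1 the value was 2.90 (edgeR adjusted p = 0.0447), a fold over 1.5 times smaller. Within the *Ezh2* cross its value was 1.96 (standard error 0.83, edgeR adjusted p = 0.689).

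The tested pathway genes with the next largest values in the *Ehmt2* cross were both rare. *Bmper*, a secreted BMP modulator, had at most 14 counts in controls and up to 70 in knockouts, with 2.96 (standard error 1.12, edgeR adjusted p = 0.319). *Bmp8a*, the paralog of *Bmp8b*, had at most 10 and 43 counts, with 2.70 (standard error 0.85, edgeR adjusted p = 0.231). Of the type II receptors and other Smads, *Smad7*, the inhibitory Smad that BMP and other signals induce, had the only unadjusted p under 0.05, with 0.58 (standard error 0.17, edgeR adjusted p = 0.192).

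In the *Ezh2* cross the largest values belonged to *Bmp6*, *Cer1* and *Hand1*. *Bmp6*, another ligand, was at 0.145, 0.532 and 0 CPM in controls and at 1.58, 4.49 and 0.98 CPM in knockouts, with a log2 fold change of 3.36 (standard error 1.01, edgeR adjusted p = 0.557). In the *Ehmt2* cross it had at most 12 counts and was not tested. *Hand1*, a target and extraembryonic marker, was at 0.725, 0 and 0.205 CPM in controls and at 3.16, 2.85 and 1.09 CPM in knockouts (2.91, standard error 0.96, edgeR adjusted p = 0.574). *Cer1*, a BMP and Nodal antagonist of the anterior visceral endoderm, had 40.4 CPM in *Ezh2* control 2 and at most 2.12 CPM in the other *Ezh2* libraries, so its value of -3.34 (standard error 1.63, edgeR adjusted p = 0.741) rests on 1 library, one with 446 CPM of visceral endoderm markers. Without that library it was 3.18 (standard error 1.26, edgeR adjusted p = 0.685).

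For *Bmp6* and *Hand1* every *Ezh2* knockout was above every control, and the same held for 3 further pathway genes (*Pcsk6*, *Gdf6* and *Acvrl1*). Of the 30 tested these were 3, beside 7.71% of genes. *Pcsk6*, a convertase that cleaves ligand precursors, was at 3.01, 3.63 and 5.33 CPM in controls and at 6.21, 6.9 and 7.29 CPM in knockouts, with 0.77 (standard error 0.28, edgeR adjusted p = 0.617). *Gdf6*, a ligand, had no count in the 3 controls and 10, 7 and 35 counts in the knockouts. *Acvrl1*, a type I receptor, had 2, 0 and 0 counts in controls and 10, 3 and 4 in knockouts. Neither was tested.

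The genes whose pattern over the 14 epiblasts was closest to that of *Bmp4* were *Gab1*, *Nup62cl*, *Duoxa2*, *Arl14epl* and *Ankrd33b*. The measure was the mean absolute difference of log2(CPM + 0.5), each gene centred on its own mean, and it was between 0.39 and 0.44 for these 5, beside a mean absolute deviation of 1.14 for *Bmp4* itself. Among the 14388 genes compared, *Id2* ranked 9 for *Bmp4*, with 0.49. *Gab1*, a docking protein of growth factor receptors, was the closest, at 8.44 to 10.2 CPM in *Ehmt2* controls and 38 to 171 CPM in knockouts. Among the *Ezh2* epiblasts *Gab1* overlapped, at 7.04 to 25.7 and 13.3 to 35.4 CPM.

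For *Id2* the closest were *Nlrx1*, *Sema7a*, *Gm773*, *Zfpm1* and *Akap17b*, between 0.34 and 0.43, beside a mean absolute deviation of 0.98 for *Id2*, and *Bmp4* ranked 17 with 0.49. In each of these 5 every *Ehmt2* knockout, knockout 4 included, was above every control, as their choice by likeness to *Id2* favours. The points share libraries and the 2 knockout contrasts, so these ranks are a description.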

How the data were processed

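From each single E6.25 epiblast 750 pg of RNA was amplified (Ovation RNA-seq System V2) and sequenced single-end. The authors trimmed reads to 40 nt, aligned them with TopHat2 to GRCm38 and counted them per Ensembl release 74 transcript with HTSeq-count, versions not given in the sources used here. The deposited values are these raw counts, 1 file per epiblast. Of 72516 listed transcripts, 70021 (96.6%) matched GENCODE vM21, used for names and positions. Of the 59 samples of the series, only these 14 libraries were analysed here.

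Counts were filtered with filterByExpr, scaled with TMM and fitted with glmQLFit in edgeR 4.0.16 (R 4.3.3), each cross by itself, and tested with glmQLFTest, with Benjamini-Hochberg adjustment over all 49710 (*Ehmt2*) or 50855 (*Ezh2*) transcripts tested. The *Ehmt2* model had a term for the study's comparison sets (replicates 1 to 3, and 4). A contrast over all 14 epiblasts tested the difference between crosses. Shares over genes use 1 transcript per gene. Exact permutation tests on CPM are two-sided, from scipy 1.17.1. Alternatives were RLE scaling, DESeq2 1.42.0, no filter, 1 transcript per gene, a replicate block, no set term, replicate 4 left out, each epiblast left out, and pseudocounts of 0.1 and 1.

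Named genes were all members, pathway genes with an adjusted p under 0.05 or groups that did not overlap, the 3 largest pathway changes per cross, and the 5 genes nearest to *Bmp4* and to *Id2*. The members and lists were chosen with earlier results of these data known. Of the type II receptors and other Smads, *Smad7* was named after its values were seen, as were *Bmpr1b* and the markers *Prl8a2*, *Otx2* and *Dnmt3b*. In simulated counts, 200 genes were given a log2 change of 3, all drawn from genes whose simulated mean count passed a floor. The *Ehmt2* fit called 100% of raised and 97% of lowered ones among 13247 genes, with 2 false calls. The *Ezh2* fit called 99% and 87% among 13358 genes, with 11 false calls. The tests of the epiblasts were adjusted over more entries, 49710 and 50855 transcripts, and called 0 of 14010 genes higher in the *Ezh2* cross. The simulated rates come only from genes above that floor and are not split by count. They therefore give no detection rate for members with few counts, such as *Bmp4*, *Bmp7* and *Bmp8b*. A limit from a count of 0 uses 3 counts and covers counting error only. Replicate numbers were not taken to pair epiblasts.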

Additional observations from a re-analysis of the deposited data

Results flagged for a closer look

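In 3 of 20 groups of 4 epiblasts checked, 1 epiblast stood apart from the rest by Dixon's test, with a gap to its nearest neighbour above 0.829 of the group's range, which chance alone gives in about 1 of 20 groups. *Id2* in *Ehmt2* knockout 1 was at 46.3 CPM, with 9.7 to 10.6 CPM in the other knockouts (0.976 of the range). *Bmp7* in *Ehmt2* control 2 was at 1.08 CPM, with at most 0.184 CPM in the other controls (0.869). *Id3* in *Ehmt2* control 4 was at 49.3 CPM, with 25.5 to 29.5 CPM in the other controls (0.833), and knockout 4, at 54.2 CPM, was high as well.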

How the results depend on the processing

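The fitted direction of *Bmp4*, *Bmp8b* and *Id2* was the same in both crosses under all 15 alternatives of the *Ehmt2* and all 11 of the *Ezh2* cross. *Bmp4* was between 2.43 and 3.64 in the *Ehmt2* cross, called in 10 of 15, and between 1.63 and 2.37 in the *Ezh2* cross, called in 1 of 11. *Id2* was between 1.78 and 2.93, called in 10 of 15, and between 0.41 and 1.29, called in 0 of 11. Among the 15, leaving out control 4, knockout 4 or both rests on the same comparison, so these are not separate results. The count of members called higher in the *Ehmt2* cross, 2, fell to 0 without the term for the comparison sets and was between 0 and 3 when each epiblast was left out. With the replicate number as a block it was 0 as well, *Bmp4* at 2.93 (edgeR adjusted p = 0.0565) and *Id2* at 2.30 (edgeR adjusted p = 0.139), and the pathway genes called higher fell from 1 to 0. Same-numbered epiblasts deviated from their group means with correlations between 0.054 and 0.373 in the *Ehmt2* cross and between -0.114 and 0.156 in the *Ezh2* cross, and not every epiblast correlated best with its own number, so the numbers were not taken as pairs. The block ended no other call. The pathway genes called were between 0 and 1 when each epiblast was left out, with *Hand1* in place of *Tfap2c* without control 3. DESeq2 called 1 member (*Bmp4*) and 1 pathway gene (*Bmp6*) higher in the *Ezh2* cross where edgeR called 0, and 1 pathway gene (*Bmpr1b*) lower in the *Ehmt2* cross. The cause of these changes was not tested.

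Fitted values that changed sign, none of them called, were *Bmpr1a* in the *Ehmt2* cross (-0.08 without replicate 4) and *Bmp2* in the *Ezh2* cross (0.11 with the replicate block). With single epiblasts left out, *Bmpr1a* was between -0.08 and 0.17 and *Smad5* between -0.38 and 0.02 in the *Ehmt2* cross. In the *Ezh2* cross *Bmp2* was then between -1.89 and 0.97, *Smad1* between -0.36 and 0.08 and *Id1* between -0.56 and 0.11. The pseudocount moved 19 of 140 single-embryo differences by more than the spread of the controls. Low counts limit *Bmp7*, *Bmp8b* and most other ligands, and 3 against 3 epiblasts cannot give an exact p below 0.10.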
